A study of Homo sapiens with 16 samples.

Results

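The forkhead (FOX) family was followed through human neural crest induction in lines edited at FOXB1, itself a member. Members were the rows of the authors' deposited table whose symbol is FOX, a letter from A to S and a number, with or without a final letter, and 43 of its 23284 genes are described. The rule goes by symbol alone, while the family was chosen with earlier results of these data known. Another 7 rows with FOX in their symbol, FOXD4L1, FOXD4L3 to FOXD4L6, FOXRED1 and FOXRED2, were not taken. The cells were WA01, an established human embryonic stem cell line, plated at 20000 cells per cm2 in medium with the WNT pathway activator CHIR99021 (3 µM), with the ROCK inhibitor Y-27632 (10 µM) at the start. The KO and Het lines were made with CRISPR/Cas9 and a single guide RNA against the translational start of FOXB1, and 2 isogenic wild-type lines were the controls. Polyadenylated RNA was sequenced at day 3, labelled pre-neural crest, and day 5, labelled neural crest, with 2 replicates for each of 4 genotypes and 2 days, 16 samples in all. The labels do not say whether a line is 1 clone or whether replicates are separate cultures.

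The table gives 1 level per gene in each of 6 groups (KO, Het and wild type at day 3 and at day 5) as FPKM, fragments scaled to transcript length and to the size of the library, and a test of each pair of groups. It has no value per library, so overlap of the libraries of different groups cannot be seen and depth is unknown. Its single wild-type group per day stands for 4 wild-type libraries in the labels, and which of them entered it is not stated. A gene was called where the authors' q-value was below 0.05. Unless said otherwise, every level, log2 change and q-value below is from the authors' deposited table, and each log2 change has the standard error (SE) that the table's test score implies.

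FOX proteins are transcription factors that share the winged-helix, or forkhead, DNA-binding domain. Several have stage-specific roles around the neural crest. FOXH1 carries NODAL signals with SMAD proteins before gastrulation, FOXD3 is an early crest factor that is also present in pluripotent cells, and FOXC1 and FOXD1 act in mesenchyme, some of it crest-derived. FOXM1, the FOXO factors and the FOXK, FOXJ and FOXP factors act more widely, in cell division, insulin signalling, metabolism and tissue patterning.

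The labelled cell types were set against marker genes. SOX10, a factor that defines the crest, stood at 34.6 FPKM in KO, 7.07 FPKM in Het and 0.388 FPKM in wild type at day 5, so wild type at day 5 was near 0 for it, while the crest factor SNAI2 was at 28.5, 19.5 and 23.2 FPKM. The 8 crest markers summed to 242 FPKM in KO, 106 FPKM in Het and 63.8 FPKM in wild type at day 5, and to 68.1, 54.0 and 17.9 FPKM at day 3. The 8 neural progenitor markers summed to 164 FPKM in KO, 324 FPKM in Het and 428 FPKM in wild type at day 5. At day 3, the 9 mesoderm and endoderm markers summed to 16.9 FPKM in KO, 0.830 FPKM in Het and 1.09 FPKM in wild type. In such bulk samples a change in the share of a cell type and a change in RNA per cell cannot be told apart.

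Of the 43 members, 13 were called in at least 1 of 9 comparisons, 9 more reached 1 FPKM without a call, FOXS1 was tested with no call, and 20 were not tested by the authors in any of them. In KO at day 3, 1 of 19 tested members was called, FOXH1, which was higher, where 9.51% of all tested genes were called (4.34% higher and 5.17% lower). In KO at day 5, 8 of 23 were called, where 13.3% of all genes were. Of these, FOXA2, FOXC1, FOXD1, FOXD3 and FOXH1 were higher (7.58% of all genes) and FOXB1, FOXI3 and FOXO1 lower (5.68%). In Het at day 3, 3 of 19 were called, FOXB1, FOXI3 and FOXM1, all lower, where 6.31% of all genes were called (1.68% higher and 4.63% lower). In Het at day 5, FOXD3 was higher and FOXI3 and FOXO1 lower, 3 of 19, where 2.16% of all genes were called (1.14% higher and 1.02% lower). KO and Het were called apart in 2 of 19 members at day 3 (2.84% of all genes) and in 4 of 23 at day 5 (8.06%). FOXA2, FOXC1, FOXD1, FOXD3 and FOXS1 were tested in only some of the 9 comparisons, through the groups where they were high, which raises these counts.

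FOXB1 itself, which in mouse marks parts of the midbrain, hindbrain and hypothalamus, was lower at day 5 than at day 3 in KO and in wild type. At day 5 it stood at 1.86 FPKM in KO, 4.47 FPKM in Het and 5.51 FPKM in wild type. At day 3 it stood at 15.5 FPKM in KO, 7.73 FPKM in Het and 18.3 FPKM in wild type, among the most abundant members. Het was thus the lowest genotype at day 3 and KO the lowest at day 5. In the authors' deposited table, FOXB1 fell in KO against wild type at day 5 (log2 change -1.56, SE 0.69, q = 0.0142) and in Het against wild type at day 3 (log2 change -1.25, SE 0.58, q = 0.0117). KO at day 3 (log2 change -0.24, 95% interval -1.33 to 0.85) and Het at day 5 (log2 change -0.30, -1.35 to 0.75) were not called against wild type. KO and Het were not called apart at day 3 (log2 change 1.00, -0.16 to 2.17) or at day 5 (log2 change -1.26, -2.45 to -0.08, q = 0.0924 in the authors' deposited table).

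In order of level, FOXB1 ran from wild type, KO and Het at day 3 to wild type, Het and KO at day 5, and no group was called apart from its neighbour in that order. From day 3 to day 5 it fell in KO (log2 change -3.06, SE 0.66) and in wild type (log2 change -1.74, SE 0.59), each with q = 0.00126 in the authors' deposited table, and Het was not called (log2 change -0.79, SE 0.53). The fall in KO and that in wild type differed by a log2 value of -1.32 (95% interval -3.06 to 0.41), which was not called. The day 3 result in Het had a limit: among genes of like GC content its log2 change was -0.95 with q = 0.0822, since the median log2 change of tested genes ran from 0.27 in the lowest of 20 GC bins to -0.74 in the highest in Het against wild type at day 3. FOXB1 RNA does not check the edit, because a change at a start codon need not alter RNA level and protein was not measured.

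The annotated coding start of FOXB1 is shown because the guide was directed at the translational start. The guide itself was not used here. FOXB1 lies on chromosome 15 from 60296421 to 60298142 in hg19, the build of the levels. The first 90 of its 975 coding bases, from the GENCODE annotation of GRCh38 (chr15:60004964-60005053, plus strand, in exon 2 of 2), follow with in-frame ATG codons in capitals.
FOXB1 coding start: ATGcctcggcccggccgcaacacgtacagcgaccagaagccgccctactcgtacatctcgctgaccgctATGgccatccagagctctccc
The capitals mark the start codon and the second in-frame ATG, at codon 24. The whole reading frame of 325 codons holds 11 in-frame ATG codons.

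Genes of the midbrain and hindbrain, where FOXB1 is known from mouse embryos, were called higher more often than lower in both edited lines, on a list of 12. At day 3 the authors' deposited table called 5 of 8 tested genes higher and 0 lower in KO (4.34% of all tested genes were higher), and 6 of 9 higher and 1 lower in Het (1.68% higher). That list was chosen with earlier results of these data known. LMX1A, a roof plate and midbrain factor, stood at 16.8 FPKM in KO and 10.7 FPKM in Het, against 0.723 FPKM in wild type (log2 changes 4.54 and 3.88). GBX2, a hindbrain factor, was the member that fell in Het at day 3, to 1.74 FPKM against 12.3 FPKM in wild type. At day 5, 3 of 7 rose in KO (7.58% of all genes) and 5 of 8 in Het (1.14%), and 0 fell. Not all 12 were tested, and the number tested varied between comparisons. OTX1, for example, was at 2.43 FPKM in Het and 0.132 FPKM in wild type at day 3. Counts where such genes are high can thus be partly set by the filter on which genes were tested. WNT1, the signal of the midbrain border, was lower in KO than in Het at both days, with 18.3 against 36.8 FPKM at day 3 and 26.2 against 58.5 FPKM at day 5.

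**Figure D1:**
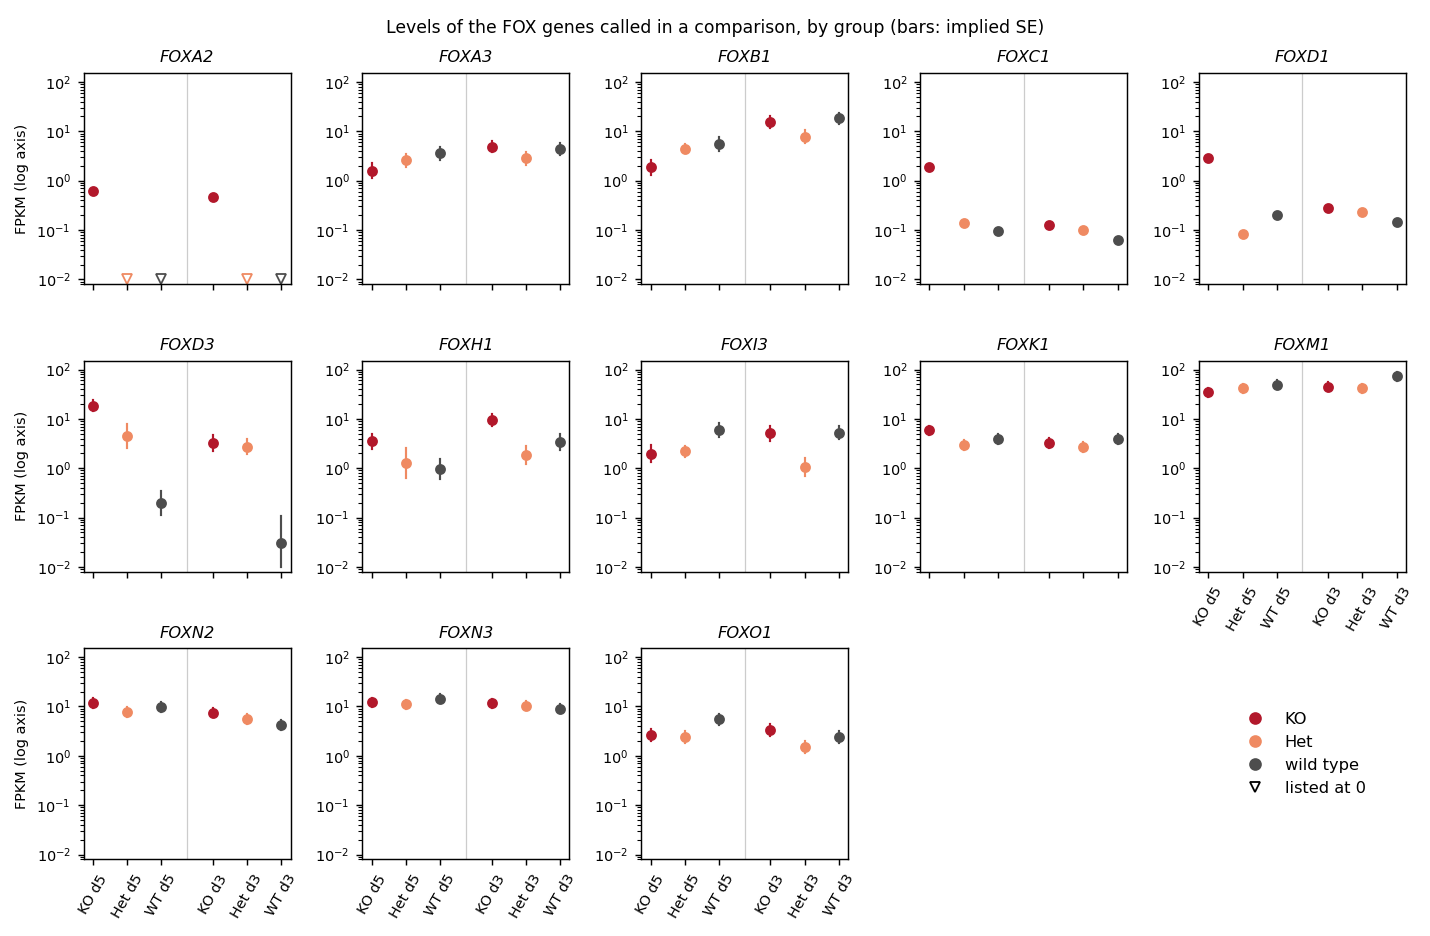
Level of each of the 13 FOX genes called in any of 9 comparisons, in FPKM on a log axis, for KO, Het and wild type at day 5 and day 3. Points are the authors' group levels, bars are 1 implied SE where it could be solved, and open triangles are groups listed at 0. FOXC1 and FOXD1 are above 1 FPKM in KO at day 5 and below 0.3 FPKM in the other 5 groups.

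FOXD3, the early crest factor, was the member furthest apart between the edited lines and wild type. At day 5 it stood at 18.6 FPKM in KO, 4.49 FPKM in Het and 0.198 FPKM in wild type. At day 3 it stood at 3.28 FPKM in KO, 2.71 FPKM in Het and 0.0313 FPKM in wild type. Both edited lines were above wild type at each day, and KO was the highest at day 5. In the authors' deposited table FOXD3 rose at day 5 in KO (log2 change 6.56, SE 0.90, q = 0.0105) and in Het (log2 change 4.50, SE 1.14, q = 0.0105), and it was higher in KO than in Het (log2 change 2.05, SE 0.88, q = 0.00126). The call in Het against wild type was lost with q adjusted within that comparison. The day 3 changes were as large, with log2 changes of 6.71 (SE 1.87) in KO and 6.43 (SE 1.86) in Het, but were not called, with q = 0.575 for each in the authors' deposited table. The wild-type level at day 3 is the least certain of the 6, with an implied SE of 1.79 on the log2 scale, so these folds are loose. Against wild type at day 5, FOXD3 in KO at day 3 had a log2 change of 4.05 (SE 0.98, q = 0.0111 in the authors' deposited table). Against that same group, Het at day 3 had a log2 change of 3.77 (SE 0.97, q = 0.0127 in the authors' deposited table). Both pairs differ in day as well as in genotype, so they cannot separate the 2. They do not stand in for the day 3 tests, which were not called. From day 3 to day 5, FOXD3 rose in KO (log2 change 2.50, SE 0.67, q = 0.00126 in the authors' deposited table). The change over time was not called in Het (log2 change 0.73, SE 0.94) and not tested by the authors in wild type.

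Other crest factors were also higher in the edited lines. Of 15 tested genes of a list of 16 crest and border factors, KO had 8 higher and 0 lower at day 3. Of all tested genes, 4.34% were higher and 5.17% lower there. At day 5 KO had 12 higher and 1 lower (7.58% and 5.68% of all genes). In Het these counts were 8 and 0 at day 3 (1.68% and 4.63%), and 9 and 1 at day 5 (1.14% and 1.02%). PAX7, a border factor, was at 14.4 FPKM in KO and 8.80 FPKM in Het, against 0.494 FPKM in wild type at day 3. SOX10 at day 5, given above, differed by log2 changes of 6.48 (SE 0.68) in KO and 4.19 (SE 0.85) in Het. The median log2 change of the tested crest factors was 2.21 in KO and 1.39 in Het at day 5, beside 0.03 and -0.03 over all tested genes. That list was chosen with earlier results of these data known, so its direction is no separate evidence.

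FOXC1 and FOXD1 were near 0 everywhere except in KO at day 5. FOXC1, a factor of mesenchyme and of the anterior eye, was at 1.90 FPKM in KO, 0.141 FPKM in Het and 0.0944 FPKM in wild type at day 5, and at 0.126, 0.101 and 0.0627 FPKM at day 3. FOXD1, a stromal and retinal factor, was at 2.84 FPKM in KO, 0.0819 FPKM in Het and 0.205 FPKM in wild type at day 5, and at 0.281, 0.231 and 0.143 FPKM at day 3. KO at day 5 was thus the high group for both. In KO against wild type at day 5, the authors' deposited table gave log2 changes of 4.33 (SE 1.03, q = 0.0105) for FOXC1 and 3.80 (SE 0.89, q = 0.00547) for FOXD1. Against Het, FOXC1 was called higher in KO (log2 change 3.75, SE 0.85), while FOXD1 (log2 change 5.12, SE 1.06, q = 0.0958) was not in the authors' deposited table. Both genes rose from day 3 to day 5 in KO, with log2 changes of 3.91 (SE 0.93) for FOXC1 and 3.34 (SE 0.90) for FOXD1. They were tested only in comparisons with KO at day 5, where they are high, so calls there are partly set by the filter on which genes were tested.

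Of 12 paraxial and lateral mesoderm genes listed with FOXC and FOXF, 5 were tested at day 5 in KO, and 2 rose (7.58% of all genes). They were TBX1, a factor of the pharyngeal arches, at 7.36 FPKM in KO and 0.425 FPKM in wild type, and PDGFRA, a growth factor receptor of mesenchyme and crest, at 1.82 FPKM in KO and 0.670 FPKM in wild type. In Het against wild type at day 5, 2 of the 12 were tested. Counts with KO at day 5, where genes such as TBX1 are high, are thus partly set by the filter on which genes were tested. Mesoderm markers were low at day 5, where the 9 listed summed to 3.24 FPKM in KO and 0.707 FPKM in wild type, and their part in these levels was not tested.

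Promoters of FOXC1, FOXD1 and FOXD3 are shown, since these genes rose in KO at day 5 and over time in KO. They come from RefSeq (GRCh38.p14) and span 250 bases before to 50 bases after the annotated start. Capitals mark matches to a short motif. The stretches are chr6:1609665-1609964 on the plus strand for FOXC1, chr5:73448728-73449027 on the minus strand for FOXD1 and chr1:63322317-63322616 on the plus strand for FOXD3.
FOXC1: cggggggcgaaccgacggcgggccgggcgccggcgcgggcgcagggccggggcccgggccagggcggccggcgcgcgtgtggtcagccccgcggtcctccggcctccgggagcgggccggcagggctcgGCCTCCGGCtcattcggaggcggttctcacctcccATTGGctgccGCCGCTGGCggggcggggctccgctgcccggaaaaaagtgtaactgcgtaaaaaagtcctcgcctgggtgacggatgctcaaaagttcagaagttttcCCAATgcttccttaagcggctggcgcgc
FOXD1: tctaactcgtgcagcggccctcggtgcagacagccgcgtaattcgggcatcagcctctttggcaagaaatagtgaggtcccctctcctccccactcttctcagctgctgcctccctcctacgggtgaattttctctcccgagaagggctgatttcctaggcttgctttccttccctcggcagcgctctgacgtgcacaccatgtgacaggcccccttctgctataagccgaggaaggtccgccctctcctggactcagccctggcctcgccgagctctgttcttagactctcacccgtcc
FOXD3: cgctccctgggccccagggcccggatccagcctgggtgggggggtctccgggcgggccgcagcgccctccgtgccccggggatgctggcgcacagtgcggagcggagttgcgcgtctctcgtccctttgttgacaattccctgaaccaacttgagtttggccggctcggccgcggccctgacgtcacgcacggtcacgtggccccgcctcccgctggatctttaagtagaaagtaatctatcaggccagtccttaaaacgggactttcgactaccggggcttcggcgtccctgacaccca
The motifs searched, on both strands, were forkhead (TGTTTAC), TCF/LEF (CTTTGAT), TFAP2 (GCCNNNGGC), the CCAAT box (CCAAT) and the TATA box (TATAAA). FOXC1 held 2 TFAP2 and 2 CCAAT matches, and the FOXD1 and FOXD3 stretches held none of the 5 motifs. Among the 33 members with a promoter in the RefSeq table, the TFAP2 letters occurred in 36.4%, against 23% of all 27305 promoters. The forkhead letters occurred in 3.03% of member promoters (FOXO4) and in 3.41% of all. CCAAT occurred in 24.2% of member promoters and 35.7% of all, TATAAA in 9.09% and 12%, and CTTTGAT in 3.03% and 2.64%. The matches describe letters in these windows and say nothing of binding.

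FOXA2, a factor of endoderm, node and floor plate, was listed above 0 in KO and at 0 in the other groups. It stood at 0.604 FPKM at day 5 and 0.462 FPKM at day 3 in KO, and Het and wild type were at 0 at both days. It was called higher in KO at day 5 against wild type and against Het, each with q = 0.00126 in the authors' deposited table, and no fold is given against 0. The change in KO over time was not called (log2 change 0.39, SE 0.84). SOX17, an endoderm factor, was at 0.665 FPKM in KO at day 3, 0.0145 FPKM in Het and 0 in wild type. Of 11 axial midline genes in the table, 8 were tested in KO at day 3 (3 higher, 1 lower) and 7 at day 5 (1 higher, 1 lower). Of all tested genes, 4.34% were higher and 5.17% lower in KO at day 3, and 7.58% and 5.68% at day 5. SPON1, a floor plate protein, rose at both days, to 7.79 FPKM in KO against 2.44 FPKM in wild type at day 3 and to 20.5 against 6.28 FPKM at day 5. PTCH1, the receptor and target of hedgehog signals, fell to 9.25 FPKM in KO against 23.2 FPKM in wild type at day 5. In Het, PTCH1 also fell at day 5, to 12.8 FPKM (log2 change -0.86, SE 0.45).

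FOXH1, the SMAD partner in NODAL signalling, was higher in KO than in both other genotypes at day 3. It stood at 3.49 FPKM in KO, 1.27 FPKM in Het and 0.975 FPKM in wild type at day 5, and at 9.47, 1.86 and 3.35 FPKM at day 3. Thus KO held the highest level at each day. In the authors' deposited table FOXH1 rose in KO against wild type at day 3 (log2 change 1.50, SE 0.67, q = 0.0196) and at day 5 (log2 change 1.84, SE 0.85, q = 0.0389). KO was also above Het at day 3 (log2 change 2.35, SE 0.72, q = 0.00126 in the authors' deposited table). At day 5, KO and Het were not called apart (log2 change 1.46, SE 1.15), and Het was called against wild type at neither day. The call in KO at day 5 was lost among genes of like GC content (log2 change 1.70, q = 0.0681) and without the median of its chromosome side (log2 change 1.72, q = 0.0628), where the change itself was about as large. From day 3 to day 5, FOXH1 fell in KO (log2 change -1.44, SE 0.65) and in wild type (log2 change -1.78, SE 0.86). The fall in wild type was not called among genes of like GC content (log2 change -1.14, q = 0.232). FOXH1 shares its locus with KIFC2, a kinesin gene at 1.66, 1.43 and 1.91 FPKM in KO, Het and wild type at day 3, and the strand used in counting is not given in the sources used here.

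Several NODAL pathway genes were higher in KO at day 3, the group where FOXH1 was highest. Of 15 tested of 16 listed, 4 were higher and 1 was lower in KO than in wild type at day 3 (4.34% and 5.17% of all tested genes). Against Het at day 3, 5 were higher and 0 lower in KO (2.84% of all genes in either direction). CER1, a secreted NODAL inhibitor, was at 17.5 FPKM in KO and 0.206 FPKM in wild type (log2 change 6.41, SE 1.01). NODAL itself was at 5.22 FPKM in KO and 0.642 FPKM in wild type (log2 change 3.02, SE 0.69), and its co-receptor TDGF1 at 7.62 FPKM in KO and 0.467 FPKM in wild type (log2 change 4.03, SE 0.77). In Het, 0 of 6 tested were called against wild type at either day. By day 5 in KO, 8 of 15 had fallen from day 3 (4.53% of all genes). Among them was EOMES, a mesendoderm factor, at 0.234 FPKM at day 5 and 4.46 FPKM at day 3. The list had 15 tested genes where KO at day 3 took part, but 6 in Het against wild type. Counts with KO at day 3, where genes such as EOMES are high, are thus partly set by the filter on which genes were tested. KO and Het are not set side by side on like genes here. Of 8 pluripotency markers, 2 were called higher (NANOG and TDGF1) and 0 lower in KO than in wild type at day 3 (4.34% and 5.17% of all genes). NANOG was at 6.76 FPKM in KO, 0.797 FPKM in Het and 1.03 FPKM in wild type. POU5F1 was at 67.5, 16.4 and 45.7 FPKM, and PRDM14, highest in wild type, at 9.38, 1.83 and 14.3 FPKM, in the same order, and neither was called in KO against wild type. The part of these cells in the FOXH1 level was not tested.

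FOXI3, a factor of placodes and pharyngeal arches in mouse, was low in Het at both days and in KO at day 5. It stood at 1.99 FPKM in KO, 2.19 FPKM in Het and 6.05 FPKM in wild type at day 5, and at 5.12, 1.05 and 5.28 FPKM at day 3. Wild type was the highest group at each day, with KO beside it at day 3. In the authors' deposited table FOXI3 fell in KO against wild type at day 5 (log2 change -1.61, SE 0.74, q = 0.0172). It fell in Het against wild type at day 3 (log2 change -2.33, SE 0.75, q = 0.00227) and at day 5 (log2 change -1.47, SE 0.62, q = 0.0277), as the authors' deposited table gives them. The day 5 call in Het was lost with q adjusted within the comparison. At day 3 FOXI3 was higher in KO than in Het (log2 change 2.29, SE 0.77, q = 0.00476 in the authors' deposited table), and KO was not called against wild type (log2 change -0.05, 95% interval -1.36 to 1.26). At day 5 KO and Het were not called apart (log2 change -0.14, -1.51 to 1.23). Of 8 non-neural ectoderm and placode markers, 6 were tested in KO against wild type at day 5. Of these, 4 were higher and 0 lower (7.58% and 5.68% of all genes). TFAP2C was at 11.9 FPKM in KO against 1.24 FPKM in wild type, and CDH1 at 1.43 against 0.271 FPKM. EYA1, a placode cofactor, was at 5.96 FPKM in KO, 1.03 FPKM in Het and 1.55 FPKM in wild type. The sum of the 8 was not raised in KO, at 119 FPKM in KO, 131 FPKM in Het and 124 FPKM in wild type at day 5.

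FOXO1, a factor held in check by insulin and AKT signals, was lower in both edited lines than in wild type at day 5. It stood at 2.62 FPKM in KO, 2.42 FPKM in Het and 5.53 FPKM in wild type at day 5, and at 3.31, 1.52 and 2.43 FPKM at day 3. In the authors' deposited table it fell at day 5 in KO (log2 change -1.08, SE 0.53, q = 0.0281) and in Het (log2 change -1.19, SE 0.56, q = 0.0157). The call in KO was lost without the median of its chromosome side, where the log2 change was -0.90 (q = 0.0905). The call in Het was lost with q adjusted within the comparison. From day 3 to day 5 FOXO1 rose in wild type (log2 change 1.19, SE 0.53, q = 0.00126 in the authors' deposited table), and it was called neither in KO (log2 change -0.34, SE 0.55) nor in Het (log2 change 0.67, SE 0.60). The change over time in KO minus that in wild type was -1.53 on the log2 scale (95% interval -3.03 to -0.03). Its adjusted p was 0.997 by the normal test with Benjamini-Hochberg adjustment, and 0.0377 with standard errors scaled to the deposited p-values.

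The other FOXO members showed no call. FOXO3 stood at 7.04 FPKM in KO, 5.16 FPKM in Het and 6.93 FPKM in wild type at day 5, and at 4.27, 4.66 and 4.70 FPKM at day 3. FOXO4 was at 2.71, 2.47 and 2.30 FPKM at day 5, and at 4.48, 3.15 and 3.02 FPKM at day 3, in the same order of genotypes. FOXO3B, a near copy of FOXO3 whose reads may be split with it and whose locus overlaps ZNF286B, ranged from 5.53 to 7.93 FPKM. Of 13 FOXO target genes tested, KO had 2 higher and 3 lower at day 3 (4.34% and 5.17% of all tested genes). At day 5 KO had 1 higher and 5 lower (7.58% and 5.68%). Het had 1 higher and 4 lower at day 3 (1.68% and 4.63%), and 0 higher and 1 lower at day 5 (1.14% and 1.02%). BCL6, a repressor, fell to 4.88 FPKM in KO against 14.7 FPKM in wild type at day 5, and IRS2, an adaptor of the insulin receptor, to 4.08 FPKM in KO against 12.6 FPKM in wild type. TXNIP, a regulator of glucose uptake and redox state, was at 13.97 FPKM in KO, 18.9 FPKM in Het and 50.1 FPKM in wild type at day 3. From day 3 to day 5, 3 of the 13 rose in KO, 4 in Het and 8 in wild type, and 0 fell. Over all tested genes, 7.29% rose in KO and 11.2% in wild type, 7.57% were called in either direction in Het, and a difference between genotypes in these counts was not tested.

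FOXM1, a driver of genes for entry into mitosis, was the most abundant member in every group. It stood at 34.5 FPKM in KO, 41.8 FPKM in Het and 49.1 FPKM in wild type at day 5, and at 44.8, 41.3 and 73.2 FPKM at day 3. Both edited lines were below wild type at each day. FOXM1 was called lower in Het at day 3 (log2 change -0.83, SE 0.42, q = 0.0182 in the authors' deposited table). KO at day 3 was not called, with a log2 change of -0.71 (SE 0.42) and q = 0.0529 in the authors' deposited table. Neighbouring genes were lower too: the 212 tested genes on its side of chromosome 12 had a median log2 change of -0.49, without which FOXM1 changed by -0.33 (q = 0.505), and among genes of like GC content it changed by -0.59 (q = 0.129). FOXM1 overlaps LOC100507424, which was at 1.26 to 2.65 FPKM.

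Against wild type, few mitotic target genes of FOXM1 were called in the edited lines. Of 14 tested, the authors' Cuffdiff test called 0 in KO at day 3 (9.51% of all genes), 2 in KO at day 5 (13.3%), 1 in Het at day 3, CDC25B, which fell (6.31%), and 0 in Het at day 5 (2.16%). In KO at day 5, CDC25B, a phosphatase of mitotic entry, rose to 38.3 FPKM against 13.3 FPKM in wild type, and CCNB2, a mitotic cyclin, fell to 81.5 FPKM against 163 FPKM in wild type. The median log2 change of these genes was 0.00 in KO and -0.01 in Het at day 3, beside -0.02 and -0.04 over all tested genes, and -0.48 in KO and -0.34 in Het at day 5, beside 0.03 and -0.03. From day 3 to day 5 in wild type, 6 of the 14 rose and 1 fell (11.2% and 10.4% of all genes). In KO 1 rose and 1 fell over time (7.29% and 4.53%), and likewise in Het (7.57% in either direction). A difference between genotypes in these counts was not tested.

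FOXA3, a factor of liver and gut endoderm, fell over time in KO and was not called over time in Het or wild type. It stood at 1.60 FPKM in KO, 2.61 FPKM in Het and 3.60 FPKM in wild type at day 5, and at 4.91, 2.82 and 4.31 FPKM at day 3. The log2 change from day 3 to day 5 was -1.61 in KO (SE 0.64, q = 0.0137 in the authors' deposited table), -0.11 in Het (SE 0.62) and -0.26 in wild type (SE 0.61). The difference between KO and wild type was -1.35 (95% interval -3.09 to 0.38) and was not called. KO at day 5 against wild type had a log2 change of -1.17 (q = 0.0604 in the authors' deposited table), called only among genes of like GC content (log2 change -1.26, q = 0.0374).

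FOXK1, a repressor linked to autophagy and metabolism, was at 5.82 FPKM in KO, 2.90 FPKM in Het and 3.92 FPKM in wild type at day 5, and at 3.24, 2.65 and 3.85 FPKM at day 3. It was called higher in KO than in Het at day 5 (log2 change 1.00, SE 0.46, q = 0.0297 in the authors' deposited table), though not without the median of its chromosome side (log2 change 0.89, q = 0.0671). Its paralogue FOXK2 was at 13.1, 11.3 and 10.5 FPKM at day 5 and 13.4, 12.2 and 14.3 FPKM at day 3, with no call.

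FOXN2 and FOXN3, of which FOXN3 is a repressor linked to cell cycle checkpoints, rose over time in wild type. FOXN2 was at 11.9 FPKM in KO, 7.86 FPKM in Het and 9.82 FPKM in wild type at day 5, and at 7.47, 5.62 and 4.22 FPKM at day 3. FOXN3 was at 12.3, 11.2 and 14.4 FPKM at day 5 and at 11.5, 10.3 and 9.07 FPKM at day 3. The wild-type rises were 1.22 (SE 0.48, q = 0.00126) for FOXN2 and 0.67 (SE 0.44, q = 0.0450) for FOXN3 on the log2 scale in the authors' deposited table. Neither was called among genes of like GC content, where they were 0.69 (q = 0.201) and 0.45 (q = 0.254), and GC bin medians in wild type over time ran from 0.52 in the lowest bin to -0.83 in the highest. Edited against wild-type cells differed in neither gene at either day by a call, with FOXN2 in KO at day 3 the nearest (log2 change 0.82, SE 0.46, q = 0.0666 in the authors' deposited table).

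**Figure D2:**
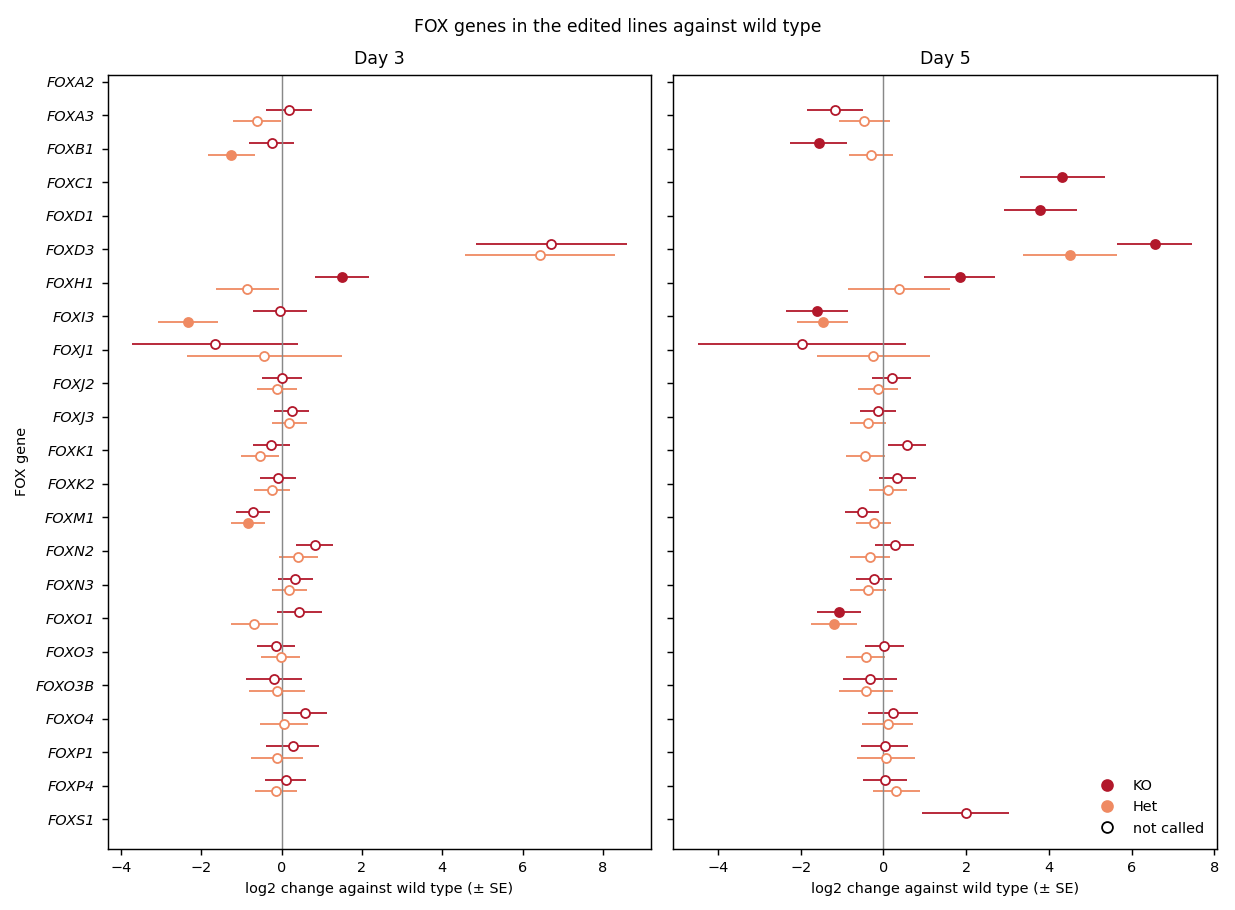
Log2 change of each tested FOX gene in KO (red) and Het (orange) against wild type at day 3 (left) and day 5 (right), with bars of 1 SE; filled points were called. FOXA2 has no point because wild type is listed at 0, and the points furthest to the right are FOXD3, at 6.71 in KO at day 3 and 6.56 at day 5.

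The other 9 members that reached 1 FPKM were called in no comparison. FOXJ1, the master factor of motile cilia, stood at 0.847 FPKM in KO, 2.80 FPKM in Het and 3.31 FPKM in wild type at day 5, and at 0.520, 1.21 and 1.64 FPKM at day 3. Its log2 change in KO at day 5 was -1.97 with an SE of 2.52 (95% interval -6.90 to 2.97), so a large change in either direction cannot be told from none, and its locus overlaps RNF157. Of 5 ciliary genes tested in KO at day 5, 1 rose (7.58% of all genes): DNAH9, an axonemal dynein, at 5.91 FPKM in KO, against 0.0920 FPKM in Het and 0.0781 FPKM in wild type. At day 3, DNAH9 fell in Het, to 1.27 FPKM against 5.50 FPKM in wild type.

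The remaining uncalled members were above 1 FPKM in all 6 groups. FOXJ3 stood at 17.8 FPKM in KO, 15.0 FPKM in Het and 19.5 FPKM in wild type at day 5, and at 16.8, 16.0 and 14.1 FPKM at day 3. FOXJ2 was at 6.75, 5.39 and 5.89 FPKM at day 5 and at 4.52, 4.15 and 4.47 FPKM at day 3, in that order. FOXP1, a factor of neurons, lung and B cells, ranged from 1.87 to 2.70 FPKM over the 6 groups, and FOXP4 from 3.12 to 4.35 FPKM. SEs of 0.43 to 0.77 on the log2 scale leave room for changes that the table could not call.

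The 22 members below 1 FPKM in all groups reached at most 0.856 FPKM. That highest level was FOXS1 in KO at day 5, against 0.299 FPKM in Het and 0.216 FPKM in wild type, and its log2 change against wild type was 1.99 (SE 1.05, q = 0.169 in the authors' deposited table). The others, besides FOXA2, were FOXA1, FOXB2, FOXC2, FOXD2, FOXD4, FOXE1, FOXE3, FOXF1, FOXF2, FOXI1, FOXI2, FOXL1, FOXL2, FOXN1, FOXN4, FOXP2, FOXP3, FOXQ1, FOXR1 and FOXR2. FOXN1, the thymus factor, and FOXR2 were listed at 0 in all 6 groups. FOXB2, the closest relative of FOXB1, was above 0 in 1 group and reached 0.0472 FPKM. FOXC1 lies on chromosome 6 beside FOXQ1 and FOXF2, which reached 0.163 and 0.166 FPKM. On chromosome 16 the neighbours FOXF1, FOXC2 and FOXL1 reached 0.127, 0.120 and 0.125 FPKM.

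**Figure D3:**
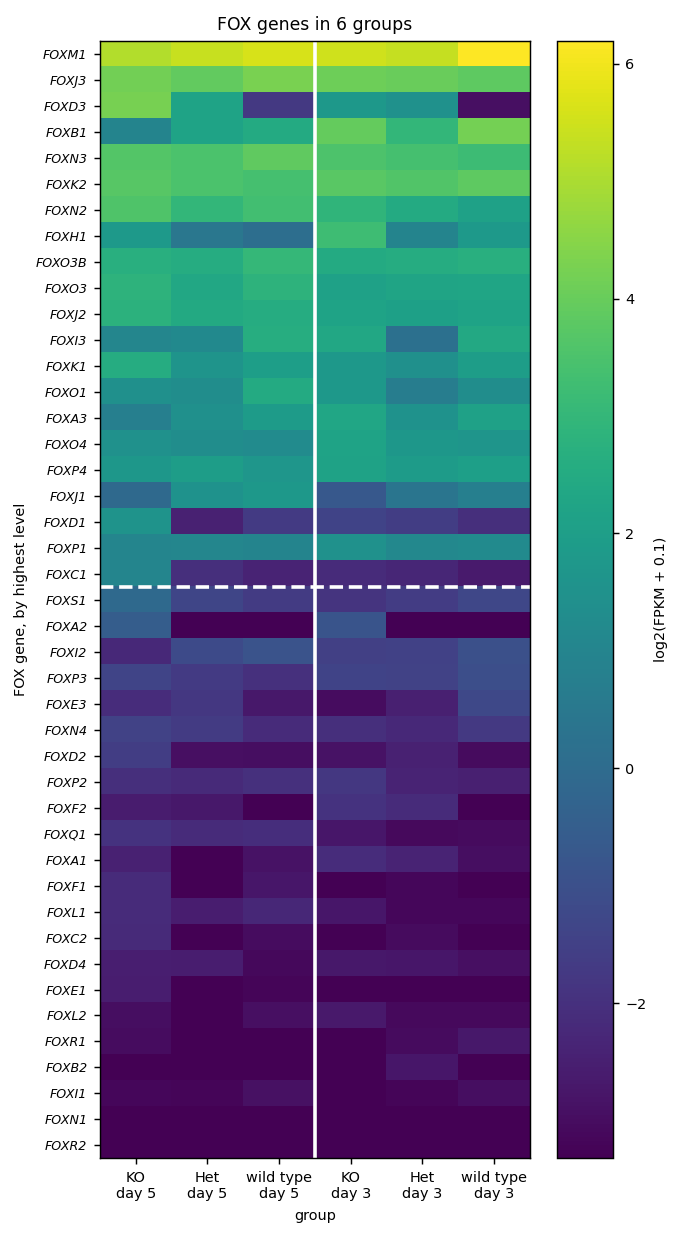
The 43 FOX genes (rows, by highest level) in KO, Het and wild type at day 5 and day 3 (columns), coloured by log2 of FPKM plus 0.1. The dashed line parts the 21 genes that reached 1 FPKM in a group from the 22 that did not; FOXM1 is the top row, at 73.2 FPKM in wild type at day 3.

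As a family the FOX genes summed to 163 FPKM in KO, 137 FPKM in Het and 162 FPKM in wild type at day 5, and to 168, 132 and 181 FPKM at day 3. FOXM1 made up 21.2%, 30.5% and 30.3% of those sums at day 5 and 26.7%, 31.2% and 40.4% at day 3. The number of members at 1 FPKM or more was 20, 19 and 17 at day 5 and 18, 19 and 18 at day 3. The day 5 count in KO took in FOXC1 and FOXD1.

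Among the 18 members tested in all 9 comparisons, 4 were called in KO at day 5, where 11.4% of all genes so tested were, and 1 in KO at day 3 (8.83%). In Het, 3 were called at day 3 (5.99%) and 2 at day 5 (1.85%). KO and Het were called apart in 2 at day 3 (2.15%) and in 1 at day 5 (6.64%). With 18 genes, 1 gene is 5.56%, so such shares are coarse. The median log2 change of these 18 in KO was 0.06 at day 3 and -0.05 at day 5, and in Het -0.18 and -0.31, while the medians of all genes so tested lay between -0.04 and 0.01. Over members above 0 in both groups, tested or not, the median in KO was 0.25 at day 3 (33 members) and 0.24 at day 5 (37 members), and in Het -0.14 (35 members) and -0.24 (32 members), so the sign in KO at day 5 depends on which members are counted.

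**Figure D4:**
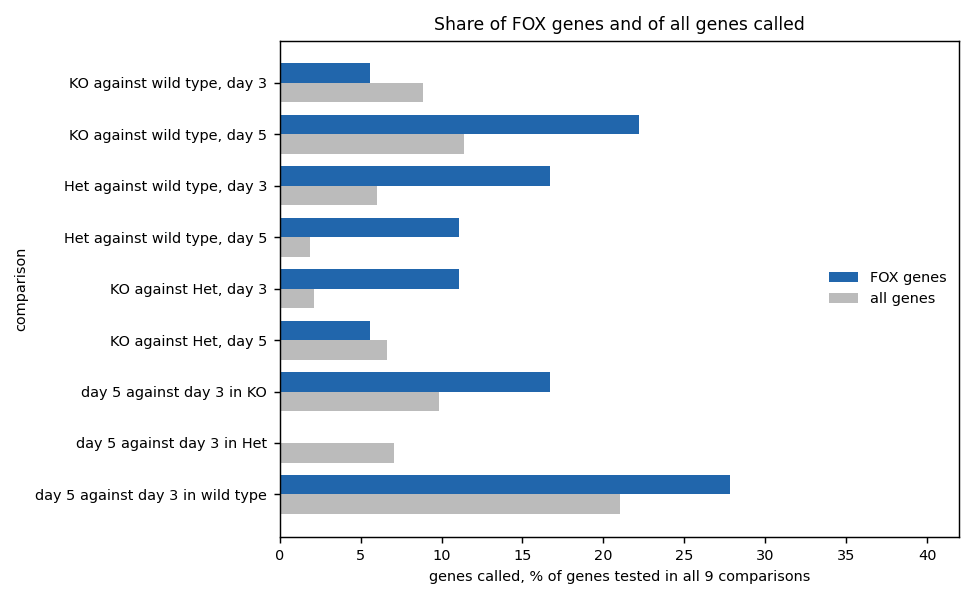
Share of the 18 FOX genes (blue) and of all genes (grey) tested in all 9 comparisons that were called in each, in percent. Shares of FOX genes move in steps of 5.56% and lie between 0 and 27.8%.

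Over time, 5 of 18 tested members were called in wild type, where 21.6% of all genes were. FOXN2, FOXN3 and FOXO1 rose (11.2% of all genes), and FOXB1 and FOXH1 fell (10.4%). In KO, 6 of 23 were called, where 11.8% of all genes were. FOXC1, FOXD1 and FOXD3 rose (7.29% of all genes), and FOXA3, FOXB1 and FOXH1 fell (4.53%). In Het, 0 of 19 were called by Cuffdiff in the authors' deposited table, where 7.57% of all genes were, and 0 had an unadjusted p below 0.05. FOXB1 and FOXH1 were thus called in KO and in wild type, in the same direction. Of the 18 tested in all 9 comparisons, 5 were called in wild type (21% of all genes so tested), 3 in KO (9.85%) and 0 in Het (7.06%). Whether a course differed was tested directly as a difference of log2 changes. No member of 18 differed between KO and wild type or between Het and wild type at an adjusted p below 0.05, where 0.318% and 0.112% of all genes did. At an unadjusted p below 0.05 there was 1 member in KO, FOXO1, and 0 in Het. The SEs used are larger than the deposited p-values imply, so few genes could be called. With standard errors scaled to those p-values, FOXO1 differed in KO, where 5.19% of all genes did, and 0 members in Het (1.16%). FOXC1, FOXD1 and FOXD3 were outside this test, since a time test was lacking in wild type.

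**Figure D5:**
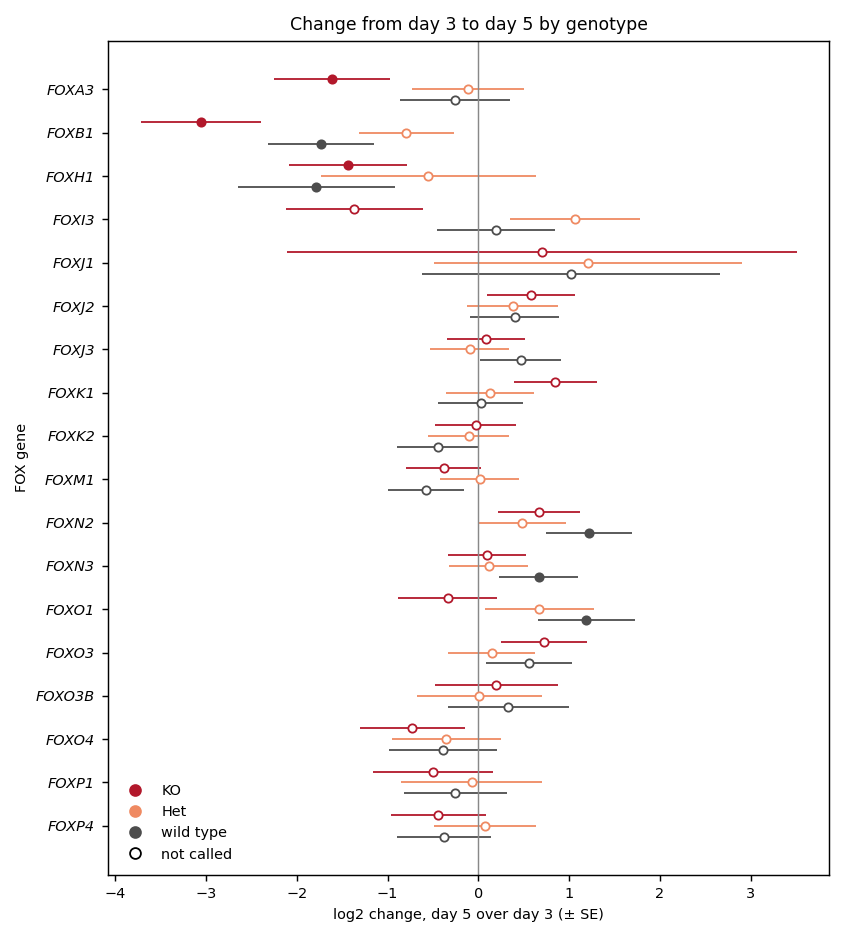
Log2 change from day 3 to day 5 in KO, Het and wild type for the 18 FOX genes tested in all 3 genotypes, with bars of 1 SE; filled points were called. FOXB1 lies furthest to the left, at -3.06 in KO, and FOXO1 lies on the right in wild type (1.19) and left of 0 in KO (-0.34).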

How the data were processed

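Polyadenylated RNA of WA01 cells was sequenced in 16 samples, 2 per genotype and day. Per the submitters' processing notes, reads were aligned to hg19 with TopHat2 2.1.1 and quantified and tested with Cuffdiff 2.2.1. The sources used here give no annotation version, strand setting or library filter. The authors deposited 1 FPKM per gene and group, scaled for transcript length and library size. For each of 15 pairs of groups, the authors also deposited a log2 fold change, a test score, a p-value and a q-value. Of these pairs, 9 were the comparisons reported. Others served for the order of FOXB1 levels, for FOXD3 against wild type at day 5 and for the SE per group. The group named HOMO in the file was read as KO. No p-value in the file is below 5e-05. Adjusting the p-values of its 222234 tests by Benjamini-Hochberg gave the q-values back to within 5.28e-07.

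SE was the log2 change over the test score, both on 1 log base, and the 95% interval is 1.96 SE either side. The deposited p-values are smaller than such an SE implies, so a called gene such as FOXN3 can have an interval that spans 0. An SE per group was solved from those of the pairs (largest relative residual 1.03e-05). Time courses were compared as a difference of log2 changes, with p from the normal distribution (2-sided), adjusted by Benjamini-Hochberg over genes with both tests. The calculation was checked on data simulated with these same SEs. Such a check cannot show whether the SEs fit the real data. GC content matched 87.5% of 15705 tested genes and all 43 members. Chromosome sides were the stretches either side of the widest gap between neighbouring genes. For both centrings, the median log2 change of tested genes in the GC bin or on the chromosome side was subtracted, and p and q were remade from the shifted score. Python 3.11.15, pandas 2.3.3, numpy 2.4.6, scipy 1.17.1 and matplotlib 3.10.9 were used.

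Every member was accounted for, those at 1 FPKM or more in a group with all 6 levels or their range and those called with log2 change and SE. Up to 3 called genes with the largest change were named per gene list and comparison, except that fewer are given where the text is short. 1 gene that fits the naming rule and 1 marker are not reported here. Members and lists were chosen with earlier results of these data known. KO and Het share their wild-type group, so their changes are given side by side only. NKX2-9 and MCIDAS, listed with the midline and ciliary genes, had no row under those symbols. Samples of 1 group may be technical repeats.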

Additional observations from a re-analysis of the deposited data

How the results depend on the processing

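With q below 0.01, the number of FOX genes called was 0 in KO at day 3, 2 in KO at day 5, 1 in Het at day 3 and 0 in Het at day 5 against wild type, and 3 in wild type over time. With genes below 1 FPKM in either group left out, it was 3 in KO and 0 in Het at day 5 against wild type, 1 between KO and Het at day 5 and 3 in KO over time. Among genes of like GC content it was 1 in Het at day 3 and 2 in wild type over time, and with q adjusted within the comparison 0 in Het at day 5. With standard errors scaled to the deposited p-values, 1 time course differed between KO and wild type (FOXO1), where 5.19% of all genes did. The other 38 counts stayed within 1.5 times of those reported. Medians over members above 0 in both groups were recomputed with pseudocounts of 0.1 and 1 or a filter at 1 FPKM. All 27 kept their sign and moved by less than the median SE of a member's log2 change. That SE is larger than the medians themselves, so this limit was wide. With a pseudocount of 1, the median in KO against wild type at day 3 went from 0.25 to 0.04. That in wild type over time went from 0.35 to 0.02. The median in KO at day 5 has the other sign over the 18 members tested in all 9 comparisons (-0.05, against 0.24). FOXD3 was also compared over time through its genotype tests, an alternative chosen after seeing the data, and its course was not called apart from wild type in KO (-0.16, SE 2.08) or Het (-1.93, SE 2.18).

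No paired analysis was possible because the deposited levels are per group and carry no replicate numbers. Leaving out a replicate, a count model and a comparison of the 2 wild-type lines were not run, since they need values per library. Depth is unknown.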
